A study of Ovis aries with 2 samples.

Results

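Cytokine genes, 10 of the 26814 gene names in the count matrices, were followed across sheep blood cells: TNF, LTA and LTB of the tumour necrosis factor family, IL1A, IL1B, CXCL8 and IL6 of the inflammatory response, the interferon gamma gene IFNG, and the regulatory genes IL10 and EBI3. They were chosen by name, as inflammatory and regulatory cytokines, and all 10 had counts in both libraries. Peripheral blood mononuclear cells were profiled by droplet single-cell RNA sequencing of transcript 3′ ends, with unique molecular identifiers (UMIs) that count molecules. One library came from sheep that received nothing, and the other from sheep in which A.G.-ES had been embedded at the acupuncture point ST36 on both sides before bleeding. The series title describes the embedded material as a suture that elutes astragaloside IV and glycyrrhizic acid and places the work in weaned lambs. Neither the number of animals behind a library nor their age, breed or sex is in the labels, and what the untreated animals carried in place of the suture is given only as no treatment.

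Cytokines are the secreted or membrane-bound proteins through which leukocytes call in, activate and restrain each other. Monocytes release the interleukin-1 proteins, CXCL8, IL-6 and TNF after contact with microbes or damaged tissue, while T and NK cells make interferon gamma and TNF on activation, and B and T cells carry lymphotoxins that organise lymphoid tissue. IL-10 and the EBI3-containing cytokines restrain these responses.

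Removal of poor barcodes and likely doublets left 7565 cells and 50488226 UMIs in the untreated library and 8737 cells and 39259466 UMIs in the A.G.-ES library, at a median of 5123 and 4101 UMIs per cell. With 1 library per group there is no replicate check and no test: every interval is a 95% interval for counting error, and a gene is called higher or lower in the A.G.-ES library past 1.5-fold, with at least 20 UMIs over the pair of libraries. These libraries also stood apart in ways the treatment label does not name. Untreated cells held 40414 UMIs of Y-linked genes and A.G.-ES cells 755, mitochondrially encoded genes took 1.37% and 2.20% of UMIs, and 61 barcode sequences occurred in both. Treatment, animals and library preparation cannot be told apart in this design.

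Cells were sorted into classes by marker UMIs, as raw counts. B cells made up 48.2% of the untreated and 23.2% of the A.G.-ES cells (3644 and 2028 cells). CD4 T cells numbered 366 and 1456, and T cells with CD8B numbered 203 and 676. T cells with SOX13 or RHEX numbered 965 and 682, and T cells with none of these marker sets or more than 1, called other T, numbered 506 and 2263. Monocytes numbered 172 and 262 (2.27% and 3.0%), and NK cells 31 and 64. The gates fix their own markers, so those give no check of the class names. Genes outside the gates among the 10 leading by fold in both libraries included SOX5 in B cells, S100A8 and S100A9 in monocytes, CD8A, GZMM and PRF1 in CD8B T cells, and CD244 in NK cells. The gates left 1678 and 1306 cells unassigned. The B marker BLK was also present in SOX13/RHEX T cells, at 210 and 161 CPM, the counts per 1000000 UMIs, and at 461 and 212 CPM in unassigned cells. With BLK left out of the B list, the SOX13/RHEX T class grew to 1684 and 889 cells.

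Over whole libraries, 5 of the 10 genes were higher in the A.G.-ES library, 1 was lower and 4 lay between. The background was 18.6% of 14179 measured genes higher and 17.7% lower. IFNG, the signature cytokine of cytotoxic lymphocytes, had 61 untreated and 305 A.G.-ES UMIs, or 1.21 and 7.77 CPM (ratio 6.43, 4.87 to 8.61). TNF, the prototype inflammatory cytokine, had 401 and 1490 UMIs, or 7.94 and 38.0 CPM (ratio 4.78, 4.28 to 5.35). IL1A, an interleukin-1 that acts from dying or activated cells, had 1482 and 3795 UMIs, or 29.4 and 96.7 CPM (ratio 3.29, 3.10 to 3.50). These are the genes with the largest ratios of the 10. In whole libraries, more cells of a type and more RNA per cell cannot be told apart.

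IL1B, which encodes the interleukin-1 that is cut by caspase-1, had 530 and 933 UMIs, or 10.5 and 23.8 CPM (ratio 2.26, 2.03 to 2.52). CXCL8, a chemokine that draws neutrophils, had 7157 and 12031 UMIs, or 142 and 306 CPM (ratio 2.16, 2.10 to 2.23). IL6, an inducer of acute phase proteins and plasma cells, was the lower gene, with 32 and 11 UMIs, or 0.634 and 0.280 CPM (ratio 0.442, 0.201 to 0.900). Of the genes between, LTB, the membrane anchor of the lymphotoxin heterotrimer, had 13060 and 7166 UMIs, or 259 and 183 CPM (ratio 0.706, 0.685 to 0.726). LTA, its secreted partner, stood at 2.91 and 2.95 CPM, IL10 at 1.58 in both libraries, and EBI3, a subunit shared by IL-27 and IL-35, at 2.34 and 2.14. The intervals of LTA, IL10 and EBI3 include no difference.

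The share of cells with a UMI went the same way for TNF, IFNG and LTB. It was 2.79% and 8.26% for TNF, 0.608% and 2.68% for IFNG, and 50.7% and 36.3% for LTB. With every cell thinned to 1500 UMIs, and shallower cells left out (549 and 641), it was 1.21% and 4.52% for TNF, 0.257% and 1.41% for IFNG, and 24.7% and 19.3% for LTB. For LTA, whose CPM were alike, the share was 1.77% and 1.25%, but 0.399% and 0.568% thinned. In the thinned cells the whole-library ratio stayed past 1.5-fold for IFNG (5.32), TNF (3.90) and IL1A (1.77). It fell under 1.5-fold for CXCL8 (1.28) and IL1B (1.18, 0.958 to 1.46), and the IL1B interval includes no difference. For IL10 it rose to 1.81 (0.849 to 4.12), past 1.5-fold, with an interval that includes no difference. The A.G.-ES library held fewer B cells and more T cells and monocytes, and the ratios depended on that makeup. When the A.G.-ES classes were weighted to the untreated library's shares, a calculation added after the data were seen, the ratio was 3.19 for IFNG, 2.43 for TNF and 1.31 for IL1A. It became 0.905 for IL1B and 0.874 for CXCL8, on the other side of 1, and 0.552 for LTB. It also moved to 0.450 for IL10 and 1.65 for EBI3, both past 1.5-fold, and was 0.532 for IL6 and 1.38 for LTA. The IL10 value rests on 1 untreated B cell with 40 of that library's 80 UMIs. Without that cell the untreated level was 0.792 CPM, beside 0.714 CPM in the weighted A.G.-ES library.

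**Figure D1:**
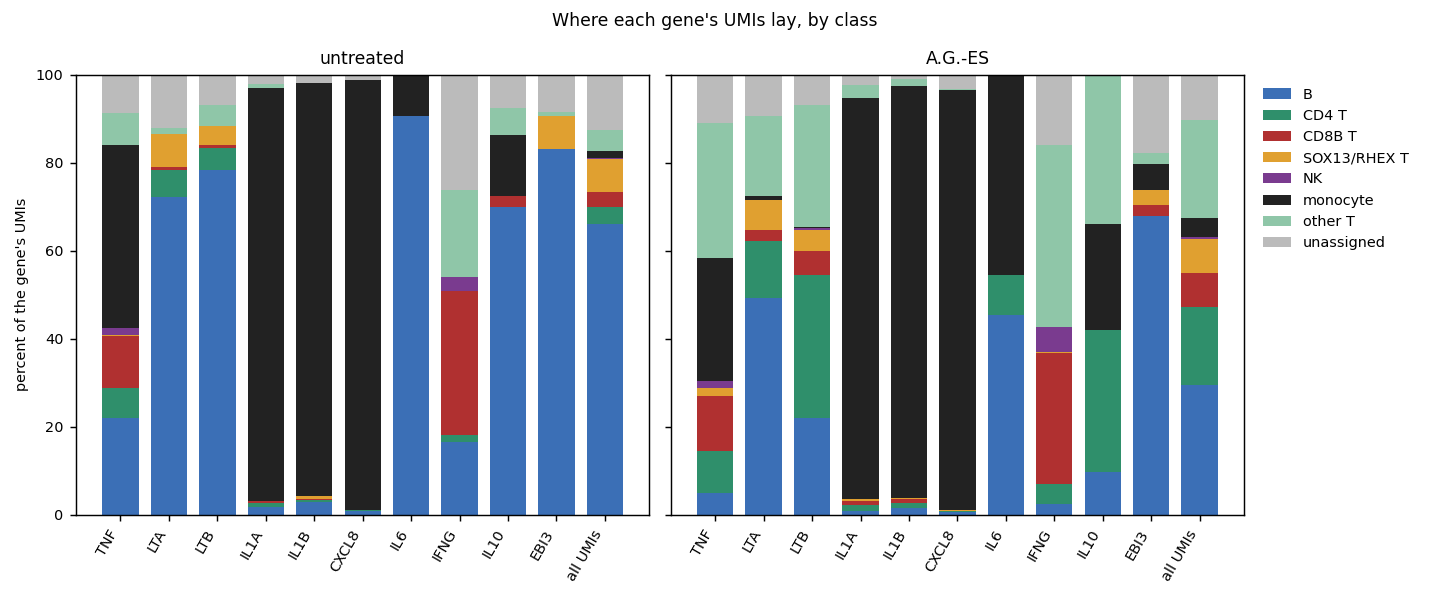
Stacked bars give the percent of each gene's UMIs that lay in each marker-gated class (colours), in the untreated library (left) and the A.G.-ES library (right), with the last bar for all UMIs. Monocytes hold over 90% of the IL1A, IL1B and CXCL8 UMIs in both libraries, and the B-cell share of LTB is 78.4% and 22.0%.

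Monocytes were the source of nearly all CXCL8, IL1B and IL1A. Although they gave 1.64% and 4.48% of all UMIs, they held 97.6% and 95.5% of CXCL8 UMIs, 94.0% and 93.7% of IL1B UMIs and 93.7% and 91.1% of IL1A UMIs. Within monocytes none of these genes passed 1.5-fold in either direction. No member was higher in monocytes and 1 (IL10) was lower, of 6 with enough UMIs, beside a background of 15.3% higher and 15.6% lower.

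CXCL8 in monocytes had 6983 and 11488 UMIs, or 8410 and 6537 CPM (ratio 0.777, 0.754 to 0.801). A UMI of CXCL8 was found in 96.5% and 98.9% of monocytes, and in 95.5% and 96.9% once cells were thinned. The median monocyte held 23 and 34 CXCL8 UMIs, with a highest cell of 222 and 272, at a median depth of 4192 and 6648 UMIs. The deeper A.G.-ES monocytes therefore held more CXCL8 UMIs per cell but a smaller proportion of their RNA. B cells, which are not a usual source of CXCL8, had a UMI in 1.54% and 2.76% of cells at median depths of 8570 and 5118 UMIs.

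IL1A in monocytes had 1388 and 3458 UMIs, or 1672 and 1968 CPM (ratio 1.18, 1.11 to 1.25), and was found in 88.4% and 93.9% of them (79.4% and 78.0% thinned). Its median was 5 UMIs per untreated and 10 per A.G.-ES monocyte. IL1B in monocytes had 498 and 874 UMIs, or 600 and 497 CPM (ratio 0.829, 0.742 to 0.928), in 75% and 74.8% of cells (52.3% and 41.2% thinned). The genes of this pair lie next to each other in the RefSeq annotation of ARS-UI_Ramb_v3.0. Their intervals lie on opposite sides of 1 in monocytes with the gate as set. With cells thinned to 1500 UMIs they did so too, at 1.02 to 1.29 for IL1A and 0.633 to 0.976 for IL1B. Under the stricter gate the ratios were 1.08 for IL1A and 0.956 for IL1B, and each interval includes no difference. In monocytes with the gate as set, IL1RN, the natural antagonist of IL-1A and IL-1B, stood at 1000 and 724 CPM (ratio 0.724, 0.663 to 0.791). NLRP3, the sensor of the inflammasome that activates caspase-1, stood there at 1086 and 774 CPM (ratio 0.712, 0.654 to 0.776).

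TNF in monocytes had 167 and 417 UMIs, or 201 and 237 CPM (ratio 1.18, 0.984 to 1.42). The ratio was 0.719 (0.537 to 0.968) under the stricter gate and 1.52 (1.05 to 2.23) with cells thinned to 1500 UMIs, so its direction depended on the setting. TNF was spread unevenly: the 18 untreated and 27 A.G.-ES monocytes with the most TNF, in number the top 10% of each class rounded up, held 64.7% and 55.9% of the class's TNF UMIs. For CXCL8 the corresponding shares were 37.1% and 28.9%. A UMI of TNF was found in 32.6% and 50% of monocytes, and in 17.4% and 26.3% after thinning. Among TNF-positive monocytes 82.1% and 78.6% also held IL1B, beside 71.6% and 71.0% of TNF-negative ones.

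**Figure D2:**
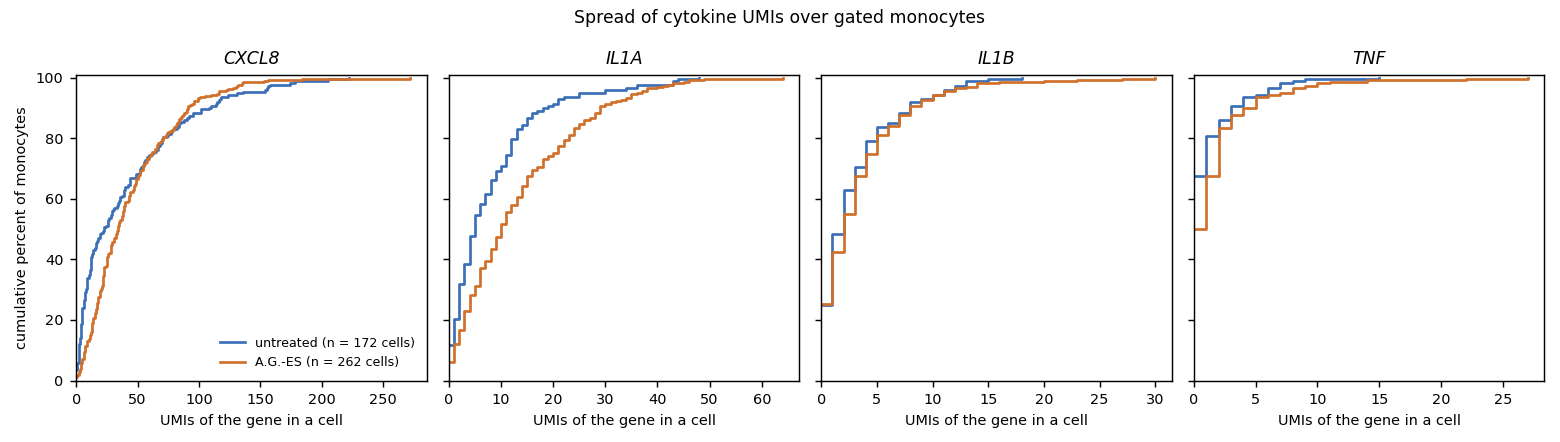
Cumulative percent of gated monocytes (vertical axis) with at most the given number of UMIs of a gene (horizontal axis), for 172 untreated (blue) and 262 A.G.-ES (orange) cells. The IL1A curve of the A.G.-ES library lies to the right of the untreated one (medians 10 and 5 UMIs), and the IL1B curves share a median of 2.

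Neutrophil markers, 4 of 5 in the files, summed to 223 and 229 CPM in the gated monocytes, with MMP9 and PGLYRP1 at 0 in the A.G.-ES library. Dendritic cell markers, 5 of 7 in the files, summed to 147 and 176 CPM there, with CLEC9A at 0 in both. The T markers in the files, 4 of 6, summed to 8.43 and 36.4 CPM, with CD6 at 0 in the untreated library. The part of these cells in the monocyte values was not tested.

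Outside monocytes, TNF lay mainly in T and B cells of the untreated library and in T cells of the A.G.-ES library. In the untreated library monocytes held 41.6% of TNF UMIs, gated T cells of all kinds 26.2%, B cells 21.9% and unassigned cells 8.73%. In the A.G.-ES library the shares were 28.0%, 54.4%, 4.83% and 11%. The order of the classes by TNF level in the A.G.-ES library ran from monocytes (237 CPM, 215 to 261) and NK cells (175, 115 to 257), whose intervals overlap, through CD8B T cells (60.4, 52.1 to 69.8) and other T cells (52.4, 47.7 to 57.4), which also overlap, to CD4 T cells (20.8, 17.6 to 24.5). SOX13/RHEX T cells (8.33, 5.39 to 12.3) and B cells (6.21, 4.86 to 7.82) came last.

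TNF in other T cells had 29 and 456 UMIs, or 11.8 and 52.4 CPM (ratio 4.42, 3.04 to 6.68). In CD8B T cells it had 48 and 186 UMIs, or 29.4 and 60.4 CPM (ratio 2.06, 1.49 to 2.89). In CD4 T cells it had 27 and 144 UMIs, or 13.4 and 20.8 CPM (ratio 1.55, 1.02 to 2.43), and under a stricter gate the log2 ratio there was -0.33. All of these classes stood higher in the A.G.-ES library with the gates as set. SOX13/RHEX T cells had 1 and 25 TNF UMIs (ratio 32.1, 5.25 to 1318), and NK cells 6 and 26, or 74.0 and 175 CPM (ratio 2.37, 0.955 to 7.05). The NK interval includes no difference, and the gated NK cells were few and shallow (median 1977 and 1964 UMIs).

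TNF was also compared within T classes by the markers GNLY and CD8A, in subsets chosen after values were seen. CD8B T cells with a UMI of GNLY, which encodes a granule protein, had 58.9 (40.0 to 83.6) and 87.9 (72.9 to 105) CPM, and those without one 15.4 (8.96 to 24.6) and 38.6 (29.8 to 49.1). The A.G.-ES level was above the untreated one in both subsets. A GNLY UMI does not set cytotoxic cells apart cleanly, since B cells held one in 4.69% and 16.7% of cells and monocytes in 1.74% and 17.2%, beside 43.8% and 47.8% of CD8B T cells. Among other T cells of the A.G.-ES library, those with a CD8A UMI had 90.0 CPM (73.8 to 109) of TNF and those without one 46.4 (41.6 to 51.5). In the untreated library these subsets had 12.4 (3.38 to 31.8) and 11.8 (7.61 to 17.4), which overlap. CD8A and GNLY detection depends on depth, and the median depth of CD8B T cells with GNLY was 3865 and 3614 UMIs, beside 6496 and 4594 without.

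Most IFNG UMIs lay in gated T cells, and the highest levels were those of NK and CD8B T cells. CD8B T cells had 20 and 91 UMIs, or 12.3 and 29.6 CPM (ratio 2.41, 1.48 to 4.14), and held 32.8% and 29.8% of the gene's UMIs. Other T cells, a remainder class, had 12 and 126 UMIs, or 4.90 and 14.5 CPM (ratio 2.95, 1.63 to 5.87), the most UMIs of any class in the A.G.-ES library. Of those 126, 54 lay in cells with a CD8A UMI (45.0 CPM) and 72 in cells without one (9.60 CPM). Unassigned cells had 16 and 49 UMIs. NK cells had 2 and 17 UMIs, or 24.7 and 115 CPM (ratio 4.65, 1.10 to 41.5), the highest class point value in each library. The untreated value rests on 2 UMIs, and its interval overlaps that of CD8B T cells. Monocytes had none in either library, which allows a share of up to 1.74% of untreated and 1.15% of A.G.-ES monocytes with a UMI by the limit of 3 counts (2.12% and 1.40% by the Clopper-Pearson interval). CD4 T cells had 1 and 14 UMIs. B cells, which should lack the gene, had a UMI in 0.137% and 0.296% of cells, beside 8.87% and 10.7% of CD8B T cells (2.55% and 4.21% thinned).

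TNF and IFNG met in the same cells in part. In A.G.-ES CD8B T cells, 22 of 94 TNF-positive cells (23.4%) held IFNG, beside 8.59% of TNF-negative cells. In the untreated library 3 of 26 (11.5%) did, beside 8.47%. The TNF-positive cells were the shallower ones, with a median of 3734 beside 4142 UMIs in the A.G.-ES and 4038 beside 5741 in the untreated library. Among the 6 gated classes the pair had its highest point value in different ones, TNF in monocytes and IFNG in NK cells. The A.G.-ES TNF intervals of these classes overlap.

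In CD8B T cells 4 members were higher and none lower, of 4 with enough UMIs, beside a background of 11.1% higher and 31.8% lower. In other T cells the members' count was 4 higher and none lower of 7 (background 10.3% and 20%), and in CD4 T cells 2 higher and 1 lower of 6 (10.4% and 18.1%). SOX13/RHEX T cells had 2 higher of 3 (9.86% higher), and NK cells 2 higher of 2 (20.1% higher). The median measured gene lay at a log2 ratio of -0.29 in CD8B T, -0.19 in other T, -0.16 in CD4 T and -0.14 in SOX13/RHEX T cells. Relative to that median, the T-cell ratios given here would each be larger. Markers of dividing cells, 3 of 3 in the files, summed to 1036 and 114 CPM in CD8B T cells and to 346 and 54.4 in CD4 T cells. Other T cells had 279 and 76.5 CPM and B cells 241 and 34.1, while SOX13/RHEX T cells went the other way, at 17.9 and 32.3. The part of dividing cells in the cytokine ratios was not tested.

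**Figure D3:**
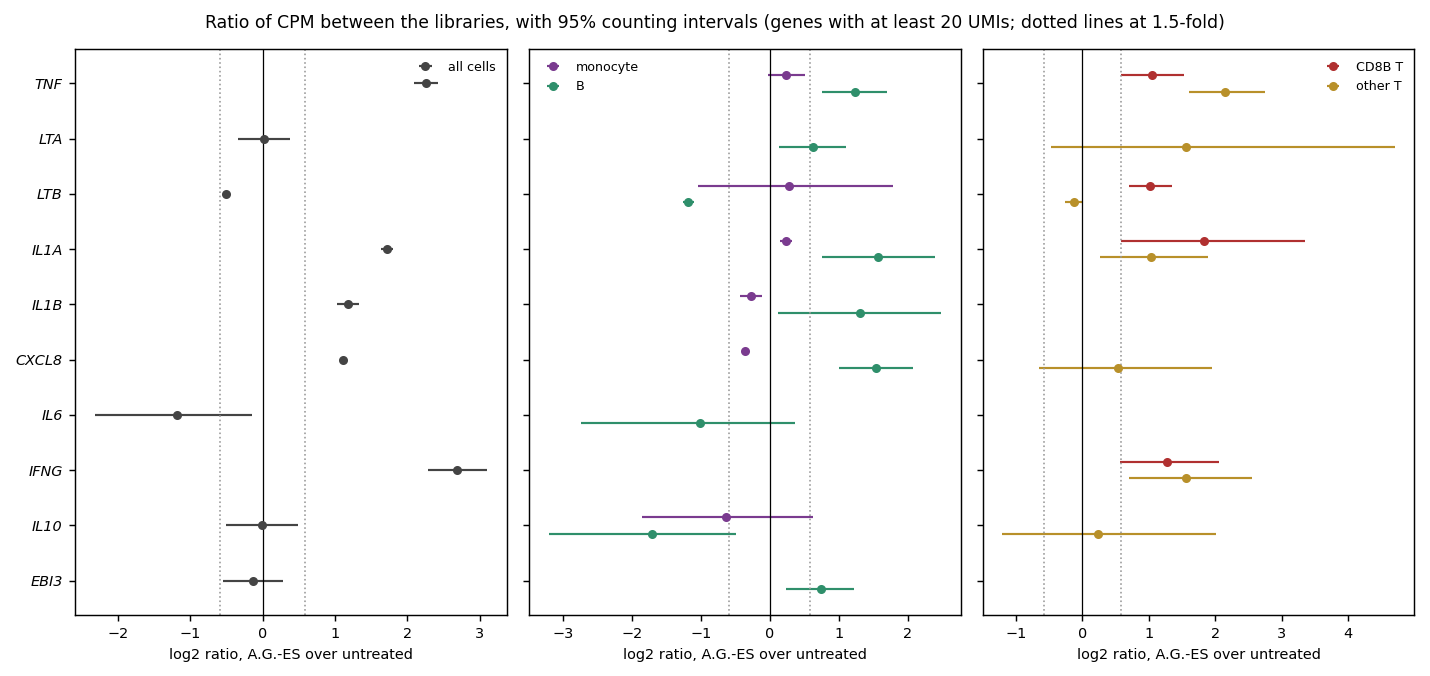
Log2 ratio of CPM, A.G.-ES over untreated, for each gene with at least 20 UMIs over both libraries, in all cells (left), monocytes and B cells (middle) and CD8B T and other T cells (right). Bars are 95% counting intervals and dotted lines mark 1.5-fold; CXCL8 lies at 1.11 in all cells and at -0.36 in monocytes.

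IL1A was also found in T cells, at a level far below that of monocytes. CD8B T cells had 6 and 40 UMIs, or 3.68 and 13 CPM (ratio 3.54, 1.49 to 10.2). Other T cells had 16 and 116 UMIs, or 6.54 and 13.3 CPM (ratio 2.04, 1.2 to 3.69), and CD4 T cells 12 and 51 UMIs, or 5.98 and 7.37 CPM (ratio 1.23, 0.649 to 2.54). B cells had 0.810 and 2.41 CPM. The T-cell values were above those of B cells in both libraries, except that the untreated SOX13/RHEX T cells had 2 UMIs, or 0.519 CPM.

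The proportion of IL1A to CXCL8 UMIs differed between classes. Monocytes had 0.199 IL1A UMIs per CXCL8 UMI in the untreated library (0.188 to 0.211) and 0.301 in the A.G.-ES library (0.290 to 0.313). B cells had 0.443 (0.270 to 0.707) and 0.452 (0.278 to 0.716). All gated T cells had 1.33 (0.787 to 2.28) and 2.37 (1.86 to 3.05), with other T cells at 2.29 (0.890 to 6.57) and 3.22 (2.20 to 4.82). The pooled T-cell proportion lay above that of monocytes and of B cells in both libraries, with intervals that do not overlap. Not each T class did so in the untreated library, where CD8B T cells had 1 (0.267 to 3.74) and SOX13/RHEX T cells 0.25 (0.0259 to 1.25).

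Few T cells held UMIs of both IL1A and CXCL8. Of 33 untreated T cells with an IL1A UMI none had one of CXCL8, which 24 of all 2040 untreated T cells held. Of 180 T cells with IL1A in the A.G.-ES library 6 had CXCL8 (3.33%, beside 1.74% of T cells without IL1A). CXCL8 was too rare in T cells for these counts to tell whether it met IL1A more or less often. CXCL8 itself was alike across the B and T classes, between 1.83 and 3.68 CPM in the untreated and between 3.90 and 5.34 CPM in the A.G.-ES library. Monocyte markers, 6 of 8 in the files, summed to 2.11 and 4.75 CPM in gated T cells and to 2.91 and 5.0 CPM in B cells, with CD14 at 0 in the untreated T cells. The part of free monocyte RNA in the IL1A and CXCL8 values of B and T cells was not tested.

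**Figure D4:**
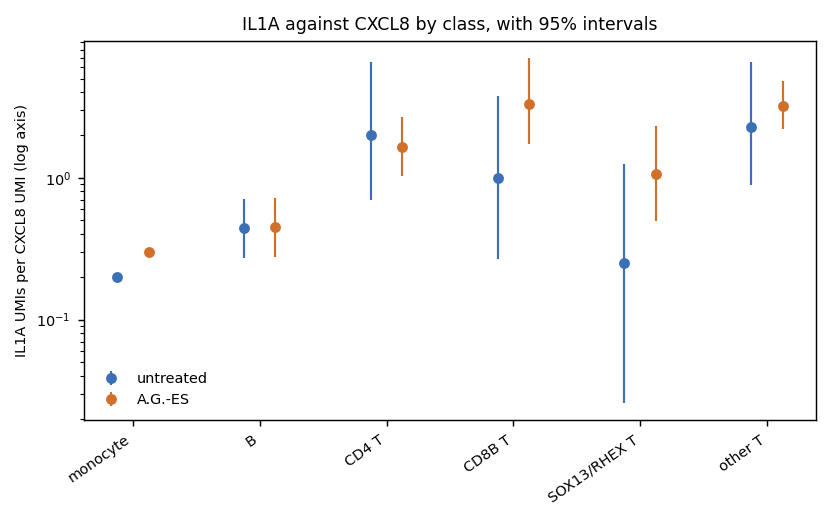
IL1A UMIs per CXCL8 UMI (vertical log axis) in 6 classes, for the untreated (blue) and A.G.-ES (orange) library, with 95% intervals. Monocytes lie lowest in the A.G.-ES library, at 0.301, and other T cells lie at 3.22.

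LTB differed in direction between classes. In B cells it had 10238 and 1573 UMIs, or 307 (301 to 313) and 136 (129 to 142) CPM (ratio 0.441, 0.418 to 0.465). In CD4 T cells it had 632 and 2326 UMIs, or 315 (291 to 340) and 336 (323 to 350) CPM (ratio 1.07, 0.978 to 1.17). B and CD4 T cells thus had overlapping levels in the untreated library, and CD4 T cells stood above B cells in the A.G.-ES library. The share of LTB UMIs that lay in B cells was 78.4% and 22.0%, beside 66.0% and 29.5% of all UMIs.

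A UMI of LTB was found in 66.4% and 35.2% of B cells, and in 30.5% and 14.6% once cells were thinned to 1500 UMIs. In monocytes, which are not a usual source of the gene, it was found in 4.07% and 5.34% of cells (8.43 and 10.2 CPM). The lower B-cell level held in each subset that was looked at, all of them chosen after values were seen. B cells with SOX5, among the leading genes of the class, had 317 (311 to 324) and 135 (127 to 144) CPM, and those without it 205 (189 to 222) and 136 (125 to 148). B cells with FCER2, a receptor for IgE, had 351 (326 to 378) and 155 (135 to 176) CPM, and those without it 304 (298 to 311) and 133 (126 to 140). B cells with JCHAIN, which joins secreted antibody units, had 331 (324 to 338) and 158 (147 to 169), and those without it 215 (204 to 227) and 118 (109 to 126). The summed B markers were also lower in the A.G.-ES B cells, at 6945 and 4671 CPM, with all 8 detected, and their part in the LTB value was not tested.

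In CD8B T cells LTB had 102 and 389 UMIs, or 62.5 and 126 CPM (ratio 2.02, 1.62 to 2.54), but the log2 ratio was -0.48 under the stricter gate, which kept 25 and 106 such cells. CD8B T cells with GNLY had 41.8 and 74.7 CPM, and those without it 72.4 and 168, so the subset with the most TNF had the least LTB. SOX13/RHEX T cells had 144 and 118 CPM (ratio 0.818, 0.714 to 0.937), other T cells 250 and 228 CPM (ratio 0.914, 0.835 to 1.00), and NK cells 3 and 21 UMIs (ratio 3.83, 1.14 to 20.1). Among A.G.-ES CD4 T cells, those with CCR7, a homing receptor of naive and central memory cells, had 452 CPM (399 to 509), and those without it 326 (312 to 340). In the untreated library the same subsets had 291 (207 to 398) and 316 (292 to 343), with intervals that overlap.

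LTA was a gene of few UMIs, of which B cells held 72.1% and 49.1% and gated T cells 15.6% and 40.5%. Of all UMIs, B cells held 66.0% and 29.5% and gated T cells 19.7% and 55.3%. B cells had 106 and 57 UMIs, or 3.18 and 4.91 CPM (ratio 1.54, 1.10 to 2.15), the opposite direction to LTB in the same cells. CD4 T cells had 9 and 15 UMIs, or 4.48 and 2.17 CPM (ratio 0.484, 0.198 to 1.25), an interval that includes no difference. Of LTA-positive B cells, 83.5% and 44.4% also held LTB, beside 66.0% and 35% of LTA-negative ones. TNF lies side by side with LTA and LTB in the RefSeq annotation. Of 59 untreated and 41 A.G.-ES B cells with TNF, 0 and 2 held LTA, beside 2.71% and 2.62% of those without TNF. With shares this low, the counts cannot tell whether TNF and LTA met more or less often.

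In that annotation the locus LOC114109638 overlaps both TNF and LTA, and LOC105610700 overlaps IL6. Whether the counting used strand is not given in the sources used here, so reads of these overlapping loci may not be separable from those of the cytokine genes.

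B cells had the most calls of the 6 classes: 6 members were higher, 3 were lower and IFNG had too few UMIs. The background was 16.4% of 12644 measured genes higher and 16.8% lower. The higher ones were TNF (88 and 72 UMIs, ratio 2.35, 1.70 to 3.25), CXCL8 (61 and 62, 2.92), IL1A (27 and 28, 2.98), IL1B (15 and 13, 2.49), EBI3 and LTA. TNF reversed when cells were thinned to 1500 UMIs (log2 ratio -0.30). T markers summed to 13.5 and 36.4 CPM in the gated B cells, with all 4 detected, and monocyte markers to 2.91 and 5.0 CPM. The part of other cells or their free RNA in these B-cell values was not tested.

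**Figure D5:**
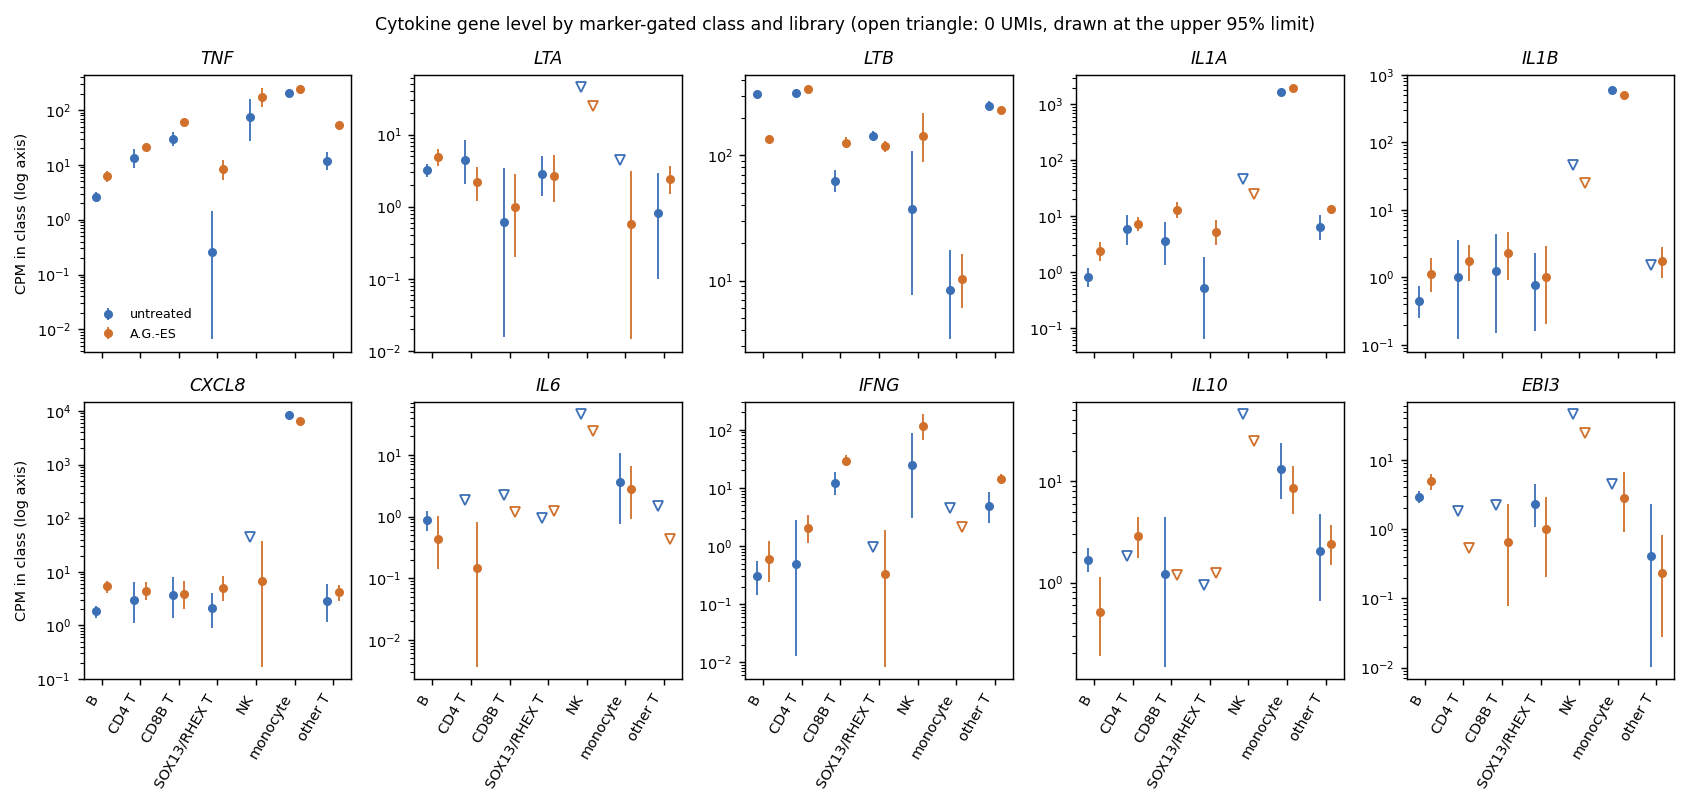
CPM of each gene (log axis, a separate scale per panel) in 7 marker-gated classes, untreated in blue and A.G.-ES in orange, with exact 95% Poisson intervals; open triangles mark classes with 0 UMIs at their upper limit. LTB in B cells lies at 307 and 136 CPM, and IFNG reaches its highest levels in NK cells, 24.7 and 115 CPM (2 and 17 UMIs).

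Most EBI3 UMIs lay in B cells, which held 83.1% and 67.9% of them, beside 66.0% and 29.5% of all UMIs. They had 98 and 57 UMIs, or 2.94 and 4.91 CPM (ratio 1.67, 1.18 to 2.34), in 2.63% and 2.56% of cells (0.493% and 0.823% thinned). CD4 T cells, which include the regulatory cells in which EBI3 is described in other species, had none in either library. Only 28 and 49 of them held a UMI of FOXP3, the regulatory T-cell factor. Their 0 UMIs of EBI3 allow up to 25.6 and 15.5 CPM, above the B-cell levels, so EBI3 in regulatory cells was not resolved. SOX13/RHEX T cells had 9 and 3 UMIs, or 2.33 and 0.999 CPM. IL27, the partner of EBI3 in IL-27, had 158 and 153 UMIs in whole libraries (ratio 1.25, 0.991 to 1.57), and its receptor gene IL27RA 2483 and 2234 (ratio 1.16, 1.09 to 1.23). IL12A, the partner in IL-35, had 8 and 1.

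IL10 had like whole-library levels in both libraries before weighting by class, from different cells. In the untreated library 70.0% of its UMIs lay in B cells, beside 66.0% of all UMIs, and 1 B cell held 40 of the library's 80. That cell had 14924 UMIs, 58 of B markers and none of T or monocyte markers, and the next highest cell held 3. Without the top cell of each library, IL10 stood at 40 and 59 UMIs (ratio 1.90, 1.25 to 2.91). In B cells the ratio was 0.308 (0.108 to 0.713) with all cells and 0.718 (0.175 to 2.23) without the top B cell of each library.

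CD4 T cells had 0 and 20 IL10 UMIs. Set against a floor of 3 counts over the untreated class, the A.G.-ES level of 2.89 CPM was at least 1.93-fold higher, while the exact 95% interval of the ratio has a lower limit of 1.43. That limit fell to 0.303 under the stricter gate (0 and 7 UMIs) and to 0.431 with cells thinned to 1500 UMIs (0 and 8), where no difference could be told. The 366 untreated CD4 T cells allow a share of up to 0.820% with a UMI by the limit of 3 counts, and up to 1.00% by the Clopper-Pearson interval. Of the 1456 A.G.-ES cells 1.03% had one (0.578% to 1.69%; 0.488% thinned), so the intervals overlap. Monocytes had 11 and 15 UMIs, or 13.2 and 8.54 CPM (ratio 0.644, 0.277 to 1.55), the highest class level of the gene in each library. The interval includes no difference.

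IL6 lay mostly in B cells in the untreated library, and equally in B cells and monocytes in the A.G.-ES library. B cells had 29 and 5 UMIs, or 0.870 and 0.431 CPM (ratio 0.495, 0.150 to 1.29). Monocytes had 3 and 5 UMIs, and T cells of all kinds 0 and 1. The B-cell interval includes no difference.

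By point value, the class with the highest CPM was the same in both libraries for 8 of the 10 genes. It was the monocyte for TNF, IL1A, IL1B, CXCL8 and IL10, the NK cell for IFNG, the CD4 T cell for LTB and the B cell for EBI3. For LTA it was the CD4 T cell in the untreated and the B cell in the A.G.-ES library, at levels whose intervals overlap with the next class. For IL6 it was the monocyte in the untreated library, from 3 UMIs, and the A.G.-ES library had too few UMIs to name one. Not all of these leads stood clear of the next class. In the untreated library the NK level of IFNG rested on 2 UMIs, and LTB was alike in CD4 T and B cells (315 and 307 CPM). EBI3 there stood at 2.94 CPM in B cells and at 2.33, from 9 UMIs, in SOX13/RHEX T cells. In the A.G.-ES library the TNF intervals of monocytes and NK cells overlapped.

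The levels of the 10 genes over the 12 sums of 6 classes and 2 libraries were compared as log2(CPM + 1). These sums share their libraries and their depth, so the correlations are descriptions. IL1A, IL1B and CXCL8 ran together (Pearson r 0.96 to 0.98), and TNF ran with them less closely (0.56 to 0.59). TNF and LTA, its neighbour, went opposite ways (-0.83), and LTB went against IL1B (-0.81). Sums with 0 UMIs entered as 0, which in small classes need not mean absence. LTA had 0 UMIs in both NK sums, which allow up to 45.5 CPM in the untreated and 24.9 CPM in the A.G.-ES library. Among 9647 genes, the closest to IL1B were NRG1, IL1RN and S100A9 (r 0.996, 0.996 and 0.995). The closest to IL1A were WWTR1, TNFSF9 and IL15RA (0.989, 0.986 and 0.982), and those closest to CXCL8 were VCAN, HTR7 and CSF1R (0.990, 0.987 and 0.987), of which VCAN and CSF1R are gate markers. The closest to IFNG were SAMD3, EOMES and ZDHHC2 (0.974, 0.966 and 0.962), to LTB SEPTIN6, PAK2 and TTC14 (0.958, 0.948 and 0.948), and to TNF ID2 and the mitochondrial genes COX1 and COX2 (0.949, 0.947 and 0.939). LTA was nearest to SERPINC1, UBXN4 and ASAP2 (0.952, 0.942 and 0.941), IL10 to MITF, IL1RAP and CLDN15 (0.924, 0.918 and 0.917), and EBI3 to TRIQK, CPED1 and HSPB8 (0.897, 0.895 and 0.888).

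The wider cytokine network was read from lists of other cytokines, of receptors and of genes that process or destabilise cytokines. Of 40 other cytokines 38 were in the files and 28 had at least 20 UMIs. Of these, 17 were higher and none lower in the A.G.-ES library, with a median log2 ratio of 0.94, beside 18.6% higher, 17.7% lower and a median of -0.05 for all measured genes. Within gated T cells, 6 of 20 were higher and 4 lower, with a median of 0.08 (background 9.86% higher and 17% lower). CCL5, a chemokine of cytotoxic lymphocytes, had 3399 and 21970 UMIs (ratio 8.31, 8.02 to 8.62). IL12B, a subunit of IL-12 and IL-23, had 4 and 26 UMIs, all in monocytes (8.36, 2.90 to 33.0). TNFSF10, the death ligand TRAIL, had 5604 and 11035 (2.53, 2.45 to 2.62). The members with the lowest ratios were TGFB1, a restraining cytokine, at 0.694 (0.661 to 0.728), and MIF, a leukocyte migration inhibitory factor, at 0.801 (0.774 to 0.829). IL17A, IL22 and CSF2 had 0 UMIs in both libraries.

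In monocytes 18 other cytokines were measured, 7 of them higher and 3 lower (background 15.3% and 15.6%). The lower ones were CSF1, a growth factor of macrophages (84 and 65 UMIs, ratio 0.366), IL23A (18 and 14, 0.367) and TGFB1 (0.623). CXCL10, an interferon-induced chemokine, had 4 and 105 UMIs in monocytes (ratio 12.4, 4.70 to 46.4). CSF1, IL23A and CXCL10, like IL12A, IL27, IL17A, IL22 and CSF2 above, lie outside the naming rule and were chosen after their values were seen.

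Of 15 receptor genes 14 were measured, with 6 higher, 1 lower and a median log2 ratio of 0.31 (background 18.6% and 17.7%). Within gated T cells 2 were higher and 1 lower of 11 (median -0.05), and in monocytes 1 and 2 of 13 (median -0.16). TNFRSF1B, the second TNF receptor, had 9006 and 17744 UMIs over whole libraries (ratio 2.53, 2.47 to 2.60) but 1324 and 936 CPM in monocytes (0.707, 0.655 to 0.764). LTBR, which binds the LTB heterotrimer, had 19 and 80 UMIs (5.41, 3.25 to 9.46), of which 18 and 62 lay in monocytes. CXCR2, which binds CXCL8, had 13 and 46 UMIs (4.55, 2.42 to 9.18), and IL1R2, the decoy receptor of interleukin-1, had 20 and 10 (0.643, 0.269 to 1.44). IFNGR2 and IL10RB, subunits of the IFNG and IL10 receptors, had ratios of 0.808 (0.772 to 0.845) and 0.766 (0.725 to 0.810).

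Of the 7 processing genes 6 were measured, with 2 higher, 2 lower and a median log2 ratio of -0.13 (background 18.6% and 17.7%). TNFAIP3, an inhibitor of the NF-kB pathway that TNF induces, had 10195 and 19662 UMIs (ratio 2.48, 2.42 to 2.54), and NLRP3 had 1074 and 1705 (2.04, 1.89 to 2.21). ZFP36, which speeds the decay of TNF messenger RNA, had 626 and 291 (0.598, 0.518 to 0.688), and CASP1, which cuts pro-IL-1B, had 1605 and 802 (0.643, 0.590 to 0.700). ADAM17, which sheds TNF from the membrane, stood at 0.848 and ZFP36L1 at 0.980. In monocytes TNFAIP3 was at 0.773 (0.729 to 0.819) and ZFP36 at 0.571 (0.390 to 0.837).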

How the data were processed

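The values are raw counts, UMIs by gene and barcode, that the authors deposited as 1 matrix per library, per the file headers and values. How reads were aligned and counted, and with which build and strand setting, is not given in the sources used here, and 0 columns of sample values were left aside. Barcodes under 500 UMIs or 200 genes, or with more than 15% mitochondrial UMIs, were left out (158 and 186). Doublets were taken as the highest Scrublet scores (scanpy 1.11.5) at 0.8% per 1000 cells, which removed 523 and 715. Scrublet's own threshold marked 221 and 197.

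Lineages (B, T, monocyte) needed at least 2 UMIs of their markers and at least 3 times those of each other lineage. NK cells needed a UMI of NCR1 or KLRF1, at most 1 of T markers and under 2 of B and of monocyte markers. T cells split by UMIs of exactly 1 of the sets CD4, CD8B, and SOX13 with RHEX, and the rest are other T. The markers CD3G, TRAT1, CD163 and FCN1 were not used here, and values of 1 monocyte marker are not reported here.

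Counts were summed per library and class and given as CPM, per 1000000 UMIs. CPM carry exact Poisson intervals, shares of cells Clopper-Pearson intervals and ratios exact conditional binomial intervals (scipy 1.17.1), at 95%, for counting error only. Where a count was 0, a limit of 3 counts was used for shares and for bounds on a fold. The ratio script was tested on simulated data. With 1 library per group no p-value was computed.

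The members and lists were chosen with earlier results of these data known. The naming rule took all 10 members, of each list the 4 genes with the most UMIs and the 2 highest and 2 lowest ratios, and for members with at least 50 UMIs the 3 genes with the highest Pearson r. Alternatives varied scaling, depth, doublets, filters, gates, count minimum and the top cell. Chosen after seeing the data were 3 more: no BLK in the B list, no NK cell with CD8B, and untreated class shares. The subsets of classes by a UMI of GNLY, CD8A, CCR7, FOXP3, FCER2, JCHAIN or SOX5 were also chosen after values were seen. RefSeq names (ARS-UI_Ramb_v3.0) matched all 10 members and were used for gene neighbours and to tell mitochondrial and Y-linked genes. No sequence is printed.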

Additional observations from a re-analysis of the deposited data

Results flagged for a closer look

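LTB and IL10 differed between classes in opposite directions, and with 1 library per group neither difference was tested. LTB was lower in A.G.-ES B cells (ratio 0.441) and higher in CD8B T cells (2.02) and NK cells (3.83, from 3 and 21 UMIs). Under the stricter gate the CD8B T ratio was 0.716 (0.452 to 1.16). Without the top cell of each library the NK interval included no difference (4.10, 0.955 to 37.0). IL10 was lower in A.G.-ES B cells (0.308), where 1 untreated cell held 40 of its 56 UMIs, and higher in CD4 T cells (from 0 and 20 UMIs, at least 1.93-fold with 3 counts as the floor; the exact interval starts at 1.43, and at 0.303 under the stricter gate).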

How the results depend on the processing

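Each of 39 log2 ratios (the members in whole libraries and in the 6 classes where they had enough UMIs) was recomputed under a set of alternatives, 365 values in all. Of these, 310 stayed within their counting interval, 48 moved beyond it and 7 reversed, a label given only to ratios past 1.5-fold. Some of the 310 could not move. Leaving out CD8B-positive NK cells changes only NK among the 6 classes, yet all its 29 values are counted there. Leaving BLK out left the monocyte and NK values unchanged. The reversed ones were IL1B at -0.14 and CXCL8 at -0.19 in whole libraries with untreated class shares, TNF in B cells at -0.30 with cells thinned to 1500 UMIs and -0.013 at 1000, TNF in CD4 T cells at -0.33 and LTB in CD8B T cells at -0.48 under the stricter gate, and IL10 in monocytes at 0.32 with cells thinned to 1000 UMIs. Of the 13 ratios under 1.5-fold, 8 changed sign under at least 1 alternative, among them TNF in monocytes (0.24, range -0.48 to 0.60), LTB in monocytes (0.28, -1.72 to 1.02) and IL1A in CD4 T cells (0.30, -0.62 to 0.56). Of the 10 members, 5 were higher and 1 lower. With every cell weighted alike 3 were higher, and with untreated class shares 3 were higher and 3 lower. The lower ones there include IL10, for which 1 untreated cell held 40 of 80 UMIs. With cells thinned to 1500 UMIs or a minimum of 100 UMIs 0 were lower. Over the 6 classes 16 pairs of member and class were higher and 5 lower. By class, 9.86% to 20.1% of all measured genes were higher and 15.6% to 31.8% lower, and no such shares were computed for the alternatives. The pair counts were 8 and 2 with cells thinned to 1500 UMIs, 3 and 2 at 1000, and 6 and 3 under the stricter gate, while leaving out the top cell left 2 lower. Thinning and the stricter gate leave fewer UMIs, so fewer pairs reach the minimum. With no minimum 1 other cytokine was lower, and with a minimum of 100 UMIs 0 receptors were. The highest class changed in 2 of 19 pairs of gene and library: LTA of the untreated library moved to NK cells with doublets kept, and IFNG of the untreated library to B cells under the stricter gate. TMM scaling, totals without ribosomal, mitochondrial and haemoglobin genes, ratios centred on the median gene, all deposited barcodes, the looser gate, and leaving BLK or CD8B-positive NK cells out reversed no ratio past 1.5-fold. No paired analysis was possible because each group holds 1 library. Depth limits IL6, IL10, LTA and EBI3 and every value in NK cells, where a few UMIs decide the ratio.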
